A study of Mus musculus with 24 samples.

Results

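The elastic fibre and microfibril genes described here are 9 genes of inguinal white adipose tissue, chosen by name from the 16233 genes of the deposited table: Fbn1 and Eln, which encode the scaffold and the core of the fibre, the fibulin family genes Fbln1, Fbln2, Fbln5 and Efemp2 (fibulin-4), and the fibre-associated genes Emilin1, Mfap4 and Mfap5. All 9 were measured in all 24 libraries. The tissue, a subcutaneous fat depot, came from male C57BL6 mice aged 10 to 11 weeks. Mice were exercised for 1 h (RUN) or spent 1 h on an artificial treadmill as a sham treatment (SED), early in the rest phase (ZT3, lights on) or early in the active phase (ZT15, in the dark under a red lamp); ZT is the hour after lights on. The 4 groups, ZT3 SED, ZT3 RUN, ZT15 SED and ZT15 RUN, hold 6 libraries each, and all animals carried the same strain background with no transgene or drug named. The ZT in each library's label is the hour at which its tissue was collected. The labels give no hour between bout and collection. Whether each library is a separate mouse is not said in words, and the p-values below then reflect library-to-library spread, part of which may be technical.

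Elastic fibres give skin, vessels and connective tissue their recoil. Fibrillin-1, the product of Fbn1, assembles into microfibrils, on which elastin is deposited and then crosslinked by lysyl oxidases. Fibulins and EMILIN-1 join elastin, microfibrils and cells, MAGP-2 (Mfap5) binds fibrillin directly, and microfibrils hold latent TGF-beta through its binding proteins. In adipose tissue these proteins are made mainly by fibroblast-like stromal cells around the adipocytes, and furin cleaves from profibrillin-1 a peptide known as asprosin, which is described as a fasting hormone.

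RefSeq promoter sequence (build GRCm38.p6) was at hand for 6 of the 9 members, and 3 windows of the 250 bases before the annotated start are shown: Fbn1 and Emilin1, the members that passed the test for time averaged over treatments, and Fbln1, one of the genes that tracked Fbn1 most closely between libraries. Capitals mark a GC box (GGGCGG on either strand) or an E-box (CACGTG, the same on both strands), the letters bound by circadian CLOCK and BMAL1 among other factors.
Fbn1, chr2:125506439-125506688, minus strand: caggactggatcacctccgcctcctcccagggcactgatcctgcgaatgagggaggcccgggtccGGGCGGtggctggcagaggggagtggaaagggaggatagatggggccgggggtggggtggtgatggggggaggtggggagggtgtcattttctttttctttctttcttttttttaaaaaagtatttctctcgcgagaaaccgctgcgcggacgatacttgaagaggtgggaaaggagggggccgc
Emilin1, chr5:30913536-30913785, plus strand: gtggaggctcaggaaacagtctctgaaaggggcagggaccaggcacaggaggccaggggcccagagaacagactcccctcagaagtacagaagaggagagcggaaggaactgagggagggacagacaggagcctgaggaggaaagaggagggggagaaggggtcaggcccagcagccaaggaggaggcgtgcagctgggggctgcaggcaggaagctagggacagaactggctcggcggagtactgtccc
Fbln1, chr15:85205699-85205948, plus strand: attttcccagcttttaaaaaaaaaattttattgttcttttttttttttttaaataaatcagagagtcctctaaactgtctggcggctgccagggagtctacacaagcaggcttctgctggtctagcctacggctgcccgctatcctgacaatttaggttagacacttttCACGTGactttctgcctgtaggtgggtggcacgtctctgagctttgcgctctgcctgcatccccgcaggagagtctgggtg
The Fbn1 window holds 1 GC box, which begins at base -185 from the start, a match found in 32.7% of 32851 mouse promoter windows of the same length. The Fbln1 window holds 1 E-box, at base -81 from the start (6.02% of windows). From another annotated Fbln1 start, whose window is not shown, the same E-box lies at base -140 and a GC box at base -11. Neither a D-box (TTATGTAA, 0.819% of windows) nor the core of a ROR element (AGGTCA, 14.0% of windows) was found on either strand in the 3 windows shown. No matched motif overlapped another in them. A match is a string of letters, not a measured binding site.

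Levels were read from the deposited normalized signal, in which reads were scaled per library. The scaling did not follow the total reads of the table alone. A read counted 0.0304 in ZT3_RUN_4, with 27.5 M reads, and 0.0439 in ZT15_RUN_6, with 27.1 M reads. Fbn1 was the most abundant member per kilobase of merged exon, at 36.1 ± 21.1 signal per kb (SD, n = 24 libraries). Fbln2 followed at 18.1 ± 3.65 and Mfap5 at 12.5 ± 5.79 signal per kb. Eln (6.10 ± 1.40), Efemp2 (5.72 ± 1.65), Fbln5 (5.28 ± 1.32), Fbln1 (4.89 ± 2.64) and Emilin1 (4.11 ± 0.68) lay close together in signal per kb, and neighbours in that order differed by less than the larger of their SDs between libraries. Mfap4 was near the floor of the table, at 0.394 ± 0.251 signal per kb, with as few as 5 reads in a library. Emilin1 was the steadiest gene, with a 1.78-fold range of signal over the 24 libraries. Fbn1 spanned 11.5-fold and Fbln1 14.4-fold. The plot of members by group shows every library.

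**Figure D1:**
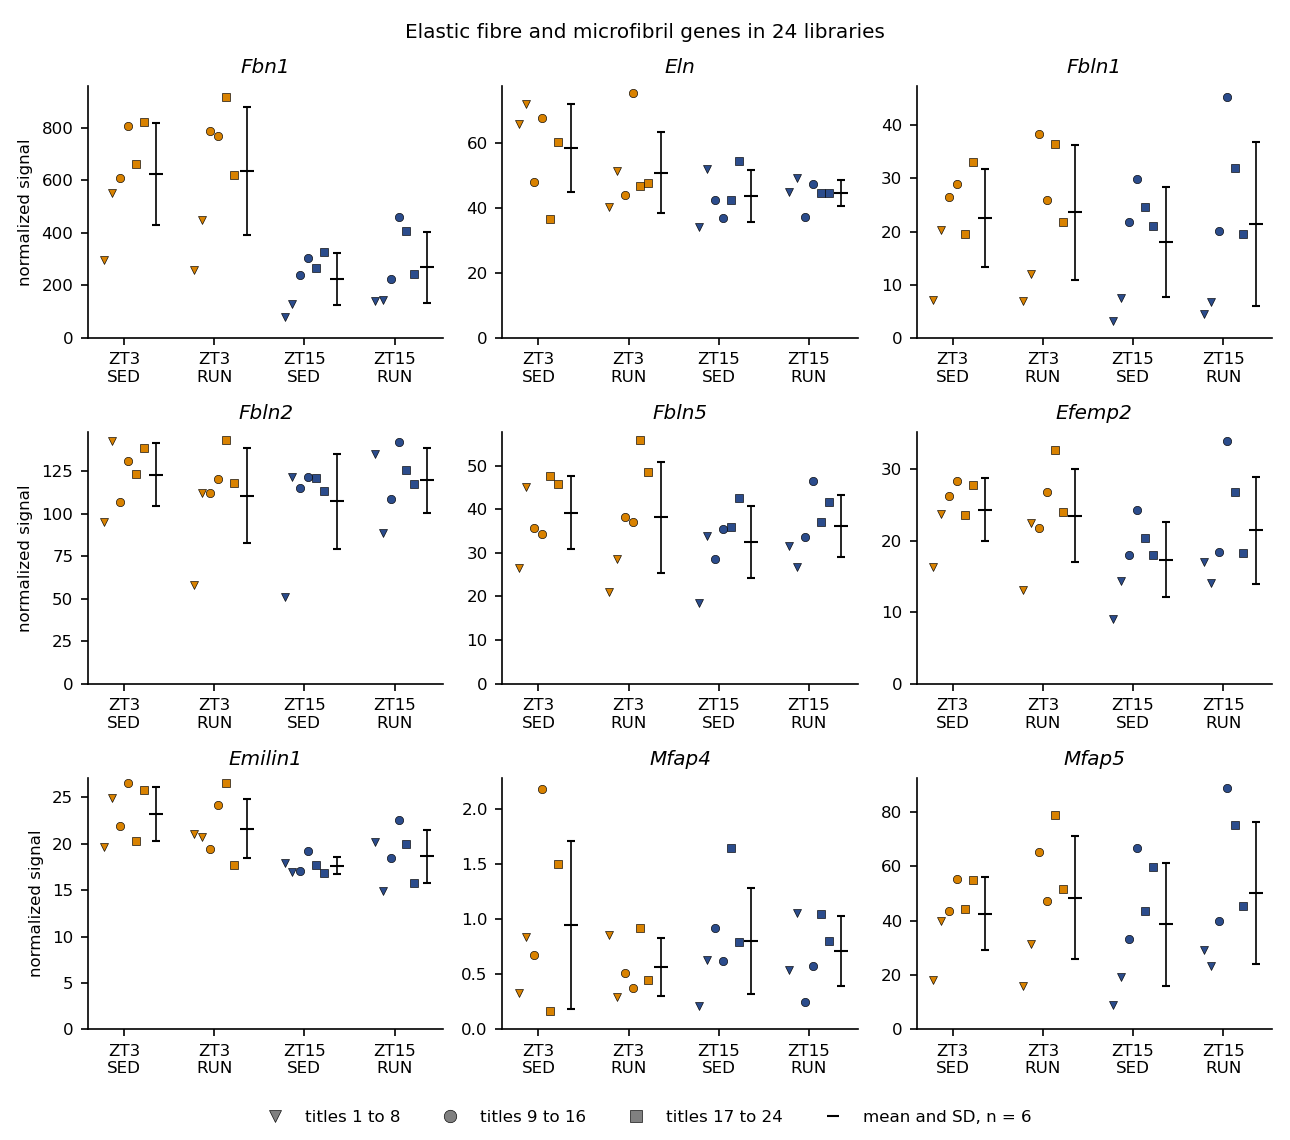
Normalized signal of the 9 members (linear axes starting at 0) in each of 24 libraries by group, orange for ZT3 and blue for ZT15, with the mean and SD of 6 libraries; symbols mark the range of title numbers. Fbn1 means are 624 and 633 in the ZT3 groups and 224 and 269 in the ZT15 groups, and the libraries titled 1 to 8 (triangles) are low for Fbn1, Fbln1 and Mfap5.

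The libraries carry title numbers 1 to 24, with 2 libraries per group in each run of 8 numbers; what they stand for is not labelled. The 8 libraries titled 1 to 8 stood apart in several members. Fbln1 signal ran from 3.16 to 20.3 (median 7.00) there and from 19.5 to 45.3 (median 26.2) in the other 16 libraries. Mfap5 ran from 9.15 to 39.8 there. Eln (34.1 to 72.1 there, 36.4 to 75.4 in the others) and Emilin1 (14.9 to 24.9 and 15.8 to 26.5) did not show this offset. The summed signal of 8 fibroblast and preadipocyte markers (Pdgfra, Dpt, Pi16, Dpp4, Cd34, Ly6a, Clec3b and Lum) was also lower in titles 1 to 8, at 621 to 1594 against 1448 to 2785, and its part in the offset was not tested. Depth was 18.5 to 34.7 M (mega) reads per library. Adipocyte markers were high everywhere (Adipoq 1101 to 3183). Lymphocyte marker sums were 603 and 170 in 2 ZT15 SED libraries and 897 in 1 ZT3 RUN library, against at most 12.3 in the others, and skeletal muscle marker sums ran from 21.3 to 40715. In a bulk sample, fewer cells of a type and less RNA per cell cannot be told apart.

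Whether time of day changed these genes was asked first in the sham mice. Fbn1, the fibrillin-1 gene (ENSMUSG00000027204), was lower at ZT15. Its signal had a lowest, median and highest value of 297, 635 and 823 in ZT3 SED. In ZT15 SED the corresponding values were 79.5, 254 and 326. The groups overlapped only where the ZT3 library titled 1 to 8 with the lowest value lay below the highest ZT15 libraries. Fbn1 fell by 1.56 ± 0.38 on the log2(value + 1) scale (SE; 2.95-fold lower; 95% interval -2.35 to -0.77; limma adjusted p = 0.0420), and 6 of 6 ZT15 SED libraries were below the ZT3 SED mean. It was 1 of 9 members past the threshold of 0.05, where 1.18% of all 16233 genes passed. The exact two-sided permutation p was 0.00649.

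The other 8 members did not pass in the sham mice. Emilin1, an elastin-binding glycoprotein of the fibre surface, had the next smallest adjusted p. Its signal was 19.6, 23.4 and 26.5 (lowest, median, highest) in ZT3 SED and 16.9, 17.4 and 19.2 in ZT15 SED, with no overlap, a difference of -0.37 ± 0.10 (limma adjusted p = 0.0807). The share of all genes without overlap between these groups was not counted. Eln, elastin itself, was at 58.3 ± 13.6 and 43.7 ± 8.05 (SD, n = 6; -0.39 ± 0.16, limma adjusted p = 0.278). Efemp2, whose product is needed to bring lysyl oxidase to elastin, was at 24.3 ± 4.39 and 17.4 ± 5.21 (-0.50 ± 0.23, limma adjusted p = 0.365). The fibulin genes Fbln1 (-0.47 ± 0.55), Fbln2 (-0.24 ± 0.20) and Fbln5 (-0.28 ± 0.21) had 95% intervals that included 0. Mfap5, whose protein binds fibrillin, did too (-0.32 ± 0.44), with an interval of -1.23 to 0.59. All 9 differences were below 0, with a median of -0.37 against 0.02 over all genes; with lymphocyte and muscle scores as covariates Fbln1, Fbln2 and Mfap5 were above 0. In the same contrast all 8 fibroblast markers were below 0 (median -0.50, 0 passed) and all 6 macrophage markers were below 0 (median -0.55, 0 passed). Smooth muscle and pericyte markers, which mark the vessel wall where elastin is also made, had a median of 0.10 (4 of 6 above 0). All 8 lymphocyte markers were above 0 (median 1.52) and all 8 skeletal muscle markers below 0 (median -1.86). The part of these cell types in the members' differences was not tested. The covariates used here score lymphocytes and muscle only. The ratios to fibroblast markers given below cannot tell fewer cells from less RNA per cell.

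The exercised mice give the same time comparison in 12 other libraries, none shared with the sham groups. The limma results of the 2 treatments are not fully separate, since 1 model of all 24 libraries supplies the spread for both. Fbn1 signal was 258, 695 and 917 (lowest, median, highest) in ZT3 RUN. In ZT15 RUN it was 138, 232 and 459, again with a small overlap at the low ZT3 libraries of titles 1 to 8. The difference was -1.27 ± 0.38 (2.41-fold lower; 95% interval -2.06 to -0.49; 6 of 6 ZT15 RUN libraries below the ZT3 RUN mean), and it missed the threshold (limma adjusted p = 0.0580; exact two-sided permutation p = 0.0130). None of the 9 members passed, where 4.19% of all genes did; 1 member had an unadjusted p below 0.05, as did 20.8% of all genes. Emilin1 differed by -0.20 ± 0.10 (limma adjusted p = 0.261). Of the 9 differences, 6 were below 0 and 3 above, from -1.27 to 0.14, with a median of -0.14. Here 6 of 8 fibroblast markers were below 0 (median -0.16) and all 8 lymphocyte markers were below 0 (median -0.90), the opposite side from the sham mice.

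Averaged over both treatments, a contrast added after the data were seen, Fbn1 fell by 1.42 ± 0.27 (2.67-fold lower; limma adjusted p = 0.00179) and Emilin1 fell by 0.29 ± 0.07 (1.22-fold lower; limma adjusted p = 0.0162). These were 2 of 9 members, where 7.37% of all genes passed. The remaining 7 ranged from Fbln1 at -0.38 ± 0.39 to Mfap4 at 0.03 ± 0.15, and Eln at -0.28 ± 0.11 had an unadjusted p of 0.0200 and an adjusted p of 0.139 by limma. Without the libraries titled 1 to 8, which leaves 16 libraries, the call for Fbn1 held, and the Emilin1 difference was as large (-0.28 ± 0.09) but missed the threshold (limma adjusted p = 0.0890). In the averaged comparison 7 of 8 fibroblast markers were below 0 (median -0.37, 0 passed), and 6 of 6 macrophage markers were below 0 (median -0.50, 2 passed). The difference between the sham and exercised time effects is the interaction given with the exercise results.

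**Figure D2:**
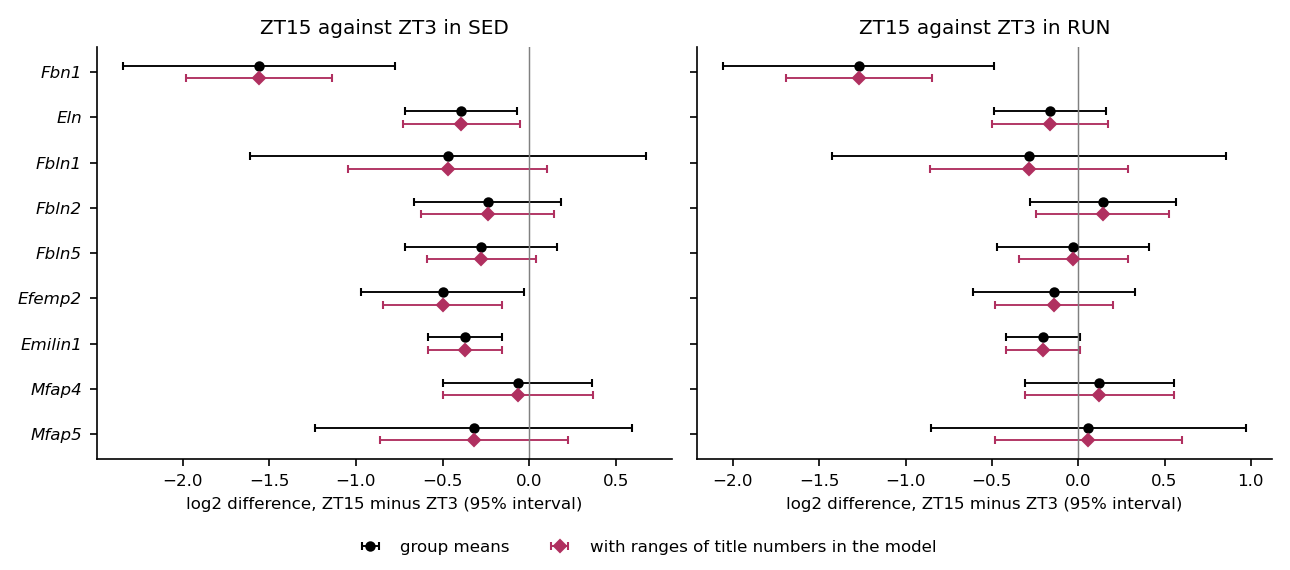
Log2 difference (ZT15 minus ZT3) of each member with its 95% interval, in SED and in RUN, from the model of group means (black circles) and with the ranges of title numbers added (red diamonds). The interval of Fbn1 lies below 0 in all 4 fits, and it narrows from an SE of 0.38 to 0.20 once the ranges of title numbers are in the model.

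Within each range of title numbers the Fbn1 values of the 2 times did not overlap. In titles 1 to 8 the 4 ZT3 libraries were at 258, 297, 450 and 552 and the 4 ZT15 libraries at 79.5, 129, 138 and 142. In titles 9 to 16 the ZT3 libraries were at 610, 769, 786 and 805 and the ZT15 libraries at 223, 241, 304 and 459. In titles 17 to 24 the values were 621, 660, 823 and 917 at ZT3 and 242, 267, 326 and 408 at ZT15. Every ZT15 library thus lay below every ZT3 library of its range, a pattern that 0.197% of all genes shared and no other member did. On the log2(value + 1) scale Fbn1 was 3.10-fold, 2.50-fold and 2.44-fold lower in the 3 ranges in order.

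**Figure D3:**
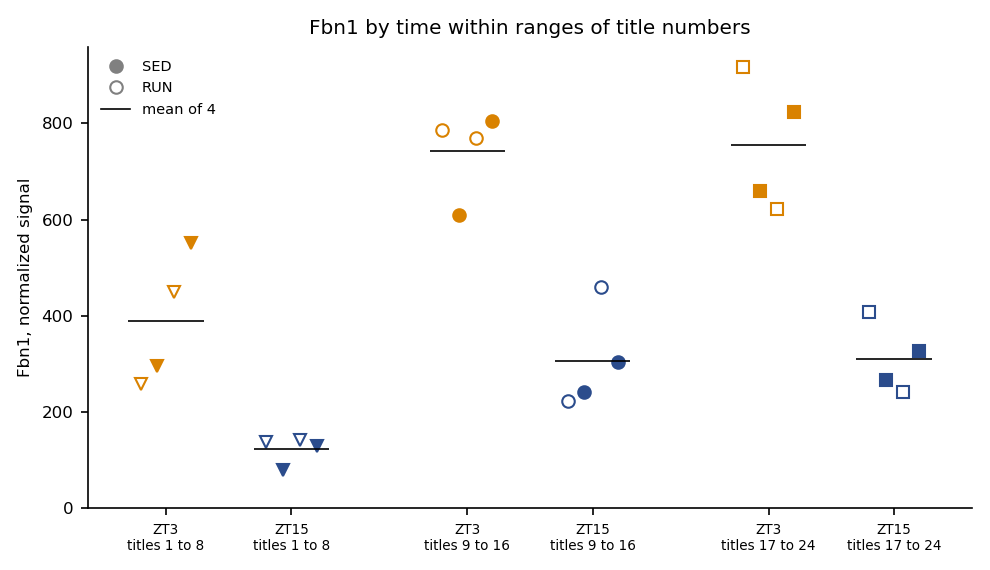
Fbn1 normalized signal (linear axis from 0) at ZT3 (orange) and ZT15 (blue) within each range of title numbers, filled for SED and open for RUN, with the mean of 4 libraries as a line. In each range the 4 ZT15 libraries are below the 4 ZT3 libraries, and both times are lower in titles 1 to 8.

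With the 3 ranges as terms in the limma model, Fbn1 differed by the same -1.56 in SED with an SE of 0.20 (adjusted p = 2.14e-04). In RUN the difference was -1.27 ± 0.20 (adjusted p = 0.00114). Fbn1 was the only member past the threshold in each, against 1.77% and 4.69% of all genes. Averaged over treatments, the same model gave Fbn1 an adjusted p of 2.49e-06 and Emilin1 an adjusted p of 0.0163, where 8.74% of all genes passed. In the model without ranges the call in the sham mice was lost with each library centred on its median (adjusted p = 0.0542), with lymphocyte and muscle scores as covariates (0.0625), without the 3 libraries high in the B cell gene Cd79a (0.0644), with edgeR on recovered reads (0.0501), and in 12 of 24 fits that each left out 1 library (adjusted p 0.0189 to 0.111 over the 24; lost without ZT3 SED 1, 2, 3, 4 or 6, ZT3 RUN 3, ZT15 SED 1, 3, 5 or 6, or ZT15 RUN 1 or 4).

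Fbn1 and the other members were next compared within each library as a log2 ratio of value + 1, a measure added after the data were seen. An offset that a library gives to both genes cancels in it only where the added 1 is small against both values, which is not so for Mfap4. Against Mfap5, its binding partner, Fbn1 stood at a ratio of 3.85 ± 0.07 in ZT3 SED (SD, n = 6), from 3.76 to 3.96. In ZT15 SED the ratio was 2.61 ± 0.29, from 2.16 to 2.99. In RUN the ratio was 3.73 ± 0.21 at ZT3, from 3.52 to 3.99, and 2.40 ± 0.11 at ZT15, from 2.21 to 2.56. The groups did not overlap in either treatment, with differences of -1.24 and -1.33 (exact two-sided permutation p = 0.00216 each, the smallest that 6 against 6 libraries allow; 0.00354 adjusted over 18 ratio comparisons). Mfap5 itself was at 42.6 ± 13.6 and 38.6 ± 22.6 in SED and at 48.4 ± 22.6 and 50.3 ± 26.1 in RUN, at ZT3 and ZT15. It differed between the times by -0.32 in SED and 0.06 in RUN. Of the members, Mfap5 also had the highest r with Fbn1 once group means were subtracted (0.98). The fall of Fbn1 was already known, so these p-values repeat it and are not a separate test.

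**Figure D4:**
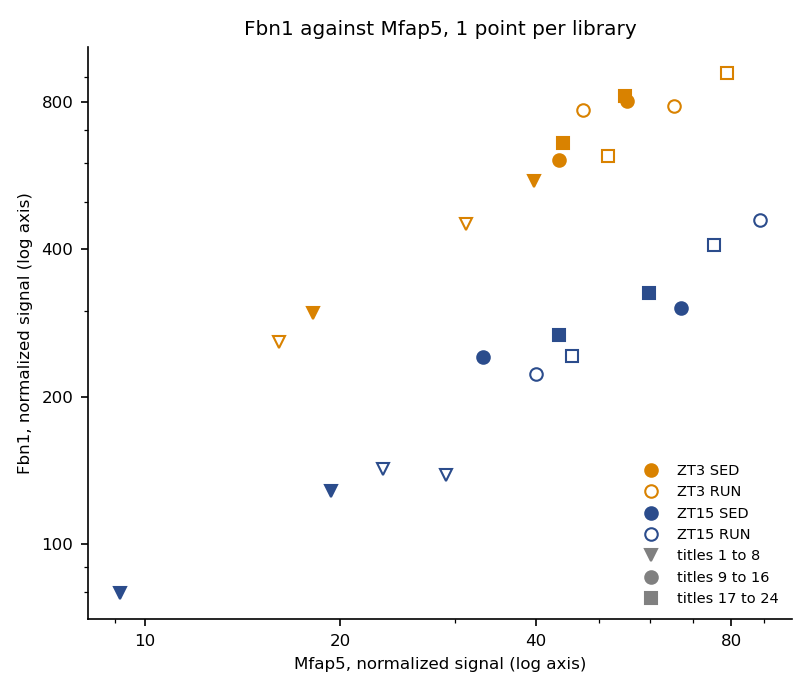
Fbn1 against Mfap5 signal (both axes logarithmic), 1 point per library, orange for ZT3 and blue for ZT15, filled for SED and open for RUN, symbols by range of title numbers. The points form 2 parallel bands: at a given Mfap5 level the ZT15 libraries have less Fbn1, with log2 ratios of 2.16 to 2.99 against 3.52 to 3.99 at ZT3.

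The same held against each other partner tried. The 18 comparisons took the 8 other members and the sum of the 8 fibroblast markers in both treatments, and all have Fbn1 in common. The fall of Fbn1 was known when the ratios were added. The 8 other members differed by only -0.50 (Efemp2 in SED) to 0.14 (Fbln2 in RUN) between the times. The 18 comparisons therefore repeat the Fbn1 result and are not separate tests of it. All 18 passed (largest exact permutation p = 0.0238, also 0.0238 after adjustment over the 18), with differences from -0.98 to -1.41 outside Mfap4, and in 11 of 18 the groups did not overlap. Ratios of other genes were not computed, so no share over all genes stands beside these counts. Without the added 1, all 18 again passed (largest adjusted exact permutation p = 0.0238) and the groups did not overlap in 10 of 18. Those against Fbln1 and Mfap4 in SED then overlapped, and those against Efemp2 in SED no longer did. Relative to the fibroblast markers the Fbn1 ratio was -1.55 ± 0.23 in ZT3 SED and -2.80 ± 0.34 in ZT15 SED. In RUN it was -1.50 ± 0.19 and -2.72 ± 0.26 (both exact permutation p = 0.00216, 0.00354 adjusted). Against Eln the ratio varied more, at 3.36 ± 0.71 and 2.19 ± 0.76 in SED, and the groups overlapped.

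Exercise was the study's other factor, and no member passed in any exercise comparison. At ZT3 the 9 differences (RUN minus SED) ran from -0.24 to 0.10 with a median of -0.07 (smallest limma adjusted p = 0.989), where 0.0% of all genes passed. At ZT15 they ran from -0.06 to 0.48 with a median of 0.17 (smallest limma adjusted p = 0.641), where 0.641% passed. At ZT15 the fibroblast markers were above 0 in 7 of 8 (median 0.23), the lymphocyte markers below 0 in 8 of 8 (median -1.58) and the skeletal muscle markers above 0 in 8 of 8 (median 1.05), and their part in the members' values was not tested. Fbn1 differed by -0.02 ± 0.38 at ZT3 and by 0.27 ± 0.38 at ZT15. The exercise by time interaction, which is also the difference of the 2 time effects, was 0.29 ± 0.54 for Fbn1, and over the 9 members 0.17 to 0.38 with a median of 0.25 (smallest limma adjusted p = 0.649; 0.0% of genes passed). Averaged over both times 0 members passed, where 0.142% of genes did. No member had an unadjusted p below 0.05 in these 4 comparisons, where 2.27%, 12.7%, 7.84% and 7.74% of all genes did, in the order given. By edgeR 0 members passed in each (0.0%, 0.745%, 0.0% and 0.166% of genes), and by DESeq2 likewise 0 (0.0%, 3.46%, 1.47% and 1.19%). The intervals are wide: over the 9 members they reached from -0.97 to 1.39 at ZT15, so a 2-fold change lay within the interval of the most variable members.

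The members fell into those that varied together between libraries and those that did not. With group means subtracted, Pearson's r over the 24 libraries was 0.98 between Fbn1 and Mfap5, 0.97 between Fbn1 and Fbln1, 0.93 between Fbn1 and Efemp2, and 0.94 between Fbln1 and Mfap5. Fbln2 and Fbln5 correlated with Fbn1 at 0.75 and 0.80. Emilin1 (0.43), Mfap4 (0.36) and Eln (0.15) correlated less with Fbn1. Without subtracting group means, r between Fbn1 and Mfap5 was 0.72. These values describe libraries that also share the offset of titles 1 to 8 and differ in cell content. Eln, the core of the fibre, had the lowest r with Fbn1 and Mfap5 after group means were subtracted; without subtracting them, the lowest r with Fbn1 was that of Mfap4 (0.20, against 0.43 for Eln).

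**Figure D5:**
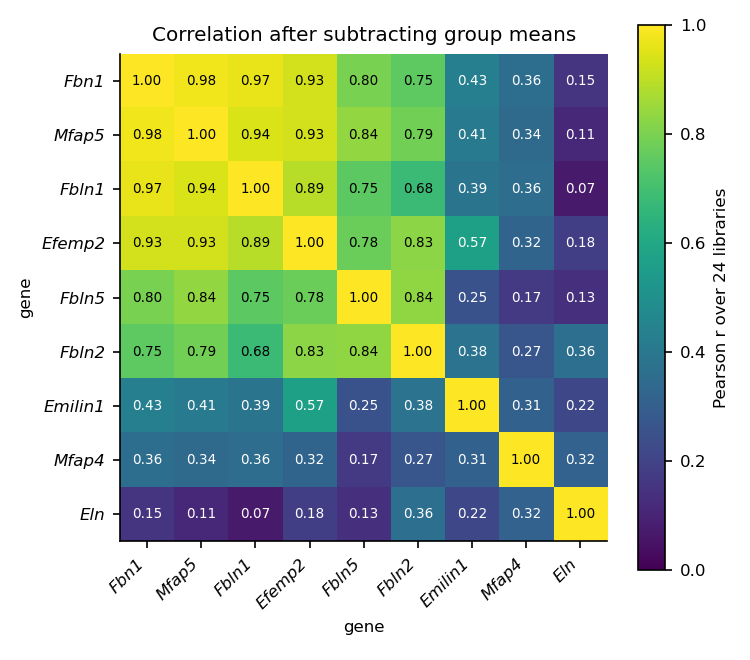
Pearson's r of log2(value + 1) between the 9 members over 24 libraries after subtracting group means; colour and printed value give r. Fbn1, Mfap5, Fbln1 and Efemp2 form a block with r from 0.89 to 0.98, and Eln has r from 0.07 to 0.36 with every other member.

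The genes most like the family were those whose log2 values correlated best with the mean z score of the 9 members over the 24 libraries. Only other genes with a named symbol and a mean log2 value above the median of the table were considered. They were Fstl1 (r = 0.958), Loxl1 (0.949), a lysyl oxidase that acts on elastin, the mannose receptor gene Mrc1 (0.943), Pltp (0.943) and Ptgfrn (0.932), followed by Pcolce, Prss23, Olfml2b, Ddah2 and Col3a1, a fibrillar collagen gene. After subtracting group means, 7 of these 10 stayed among the first 10, led by Ptgfrn at 0.955.

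Of the wider elastic fibre pathway, 51 genes in 7 lists were followed, and all were measured. At ZT15 against ZT3 in SED, 39 of 51 were below 0 (median -0.26), 2 passed as lower (0.561% of all genes) and 0 as higher (0.616%). Mmp14, a membrane metalloproteinase that degrades matrix, fell by 0.92 ± 0.19 (limma adjusted p = 0.0118), from 63.5 to 110 in ZT3 SED to 29.2 to 61.1 in ZT15 SED with no overlap. Loxl2, a lysyl oxidase-like crosslinking enzyme, fell by 1.10 ± 0.23 (limma adjusted p = 0.0164), from 58.4 to 89.6 to 14.5 to 42.6, also with no overlap. How many of all genes lacked overlap in SED was not counted. In RUN 22 of 51 were below 0 (median 0.03) and 0 passed, where 4.19% of all genes did. Mmp14 was at -0.65 ± 0.19 there (limma adjusted p = 0.0516). The Loxl2 groups overlapped in RUN, at 34.5 to 84.8 at ZT3 and 31.5 to 61.7 at ZT15.

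Averaged over treatments, 5 of the 51 passed as lower and 2 as higher, where 3.14% and 4.24% of all genes did. Among the crosslinking genes 3 of 8 fell: Loxl2 by 0.77 ± 0.17, Loxl4 by 0.57 ± 0.15 and Fkbp10, a collagen and elastin chaperone, by 0.48 ± 0.12 (limma adjusted p = 0.00509, 0.0246 and 0.0187). Among 7 elastases and matrix proteases, Mmp9 fell by 1.20 ± 0.25 and Mmp14 by 0.78 ± 0.13 (limma adjusted p = 0.00389 and 6.18e-04). Adamtsl2, a protein of the microfibril and linked to short stature syndromes, rose by 1.04 ± 0.24 (limma adjusted p = 0.00785), from 2.62 ± 2.25 to 6.21 ± 1.50 in SED and from 3.66 ± 1.96 to 8.53 ± 5.16 in RUN. Ltbp2, which binds fibrillin-1, rose by 0.36 ± 0.11 (limma adjusted p = 0.0473).

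In the other 3 lists no gene passed in the averaged comparison. Of the other fibre genes, 6 of 9 were below 0, with Efemp1 at -0.33 ± 0.28 and Emilin2 at -0.60 ± 0.35. Of the integrin and elastin receptor genes, 4 of 9 were below 0, with Itgb1 at 0.06 ± 0.07 and Ctsa at -0.10 ± 0.05. Of the matrix partners, 5 of 6 were below 0, with Dcn at -0.19 ± 0.26 and the perlecan gene Hspg2 at an SE of 0.12 around a difference of -9.71e-04. After exercise 13 of the 51 were above 0 at ZT3 and 36 at ZT15, and 0 passed at either time.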

How the data were processed

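Total RNA of 24 libraries was sequenced as stranded, ribosome-depleted, paired-end libraries of 38 bp reads, per the labels' protocols. The submitters' processing notes list limma 3.48.3, STAR, featureCounts and Subread 1.6.2, giving no role or order. For the genome build, annotation, strand setting and filter on low genes, the sources used here give nothing, so reads of overlapping or antisense genes cannot be told apart. The deposited signal was scaled per library by the authors, and the scaling did not follow the total reads of the table alone. Of its values, 100% were whole multiples of 1 read within a tolerance of 0.01, which gave recovered reads for the count tests.

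Values were tested as log2(value + 1), which understates changes of low genes, with limma 3.58.1 in R 4.3.3 (lmFit, eBayes with trend) in 1 group-means model of 24 libraries, adjusted by Benjamini-Hochberg over 16233 genes at a threshold of 0.05. All adjusted p-values are limma's unless another tool is named. Replicate numbers follow record order and pair no libraries. Alternatives were other scalings, filters and pseudocounts, title number terms, cell scores as covariates, and edgeR 4.0.16 and DESeq2 1.42.0 on recovered reads. Those with titles 1 to 8 left out, those joining title number terms with cell scores or edgeR, the averaged time contrast and the ratios were added after seeing the data. Exon lengths come from GENCODE M21. The scripts were tested on simulated data.

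The members, gene lists, markers and rules were chosen with earlier results of these data known. All members are named. Pathway genes past the threshold are named, or the 2 most abundant of a list where none passed. The genes most like the family are the 10 with the highest correlation among other genes with a named symbol and a mean above the median of the table.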

Additional observations from a re-analysis of the deposited data

Results flagged for a closer look

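In 36 groups of 6 libraries (9 members in 4 groups), 6 had a lowest library set apart from the other 5. This was by Dixon's test on log2(value + 1) at the 95% level, which chance gives in about 1 of 20 independent groups. The groups are not independent here, since the members share libraries and several vary together, so the count cannot be set against that share. Of these, 3 are in library ZT3_SED_5, titled in the range 1 to 8: Fbln1 was at 7.09 there (next lowest 19.5), Efemp2 at 16.3 (23.5) and Mfap5 at 18.1 (39.8). Fbln2 was at 58.3 in ZT3_RUN_4 (next 112) and at 50.8 in ZT15_SED_5 (next 114), which are also 2 of the 3 libraries high in Cd79a. Eln was at 37.1 in ZT15_RUN_1 (next 44.5).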

How the results depend on the processing

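The number of members called in SED (1, Fbn1) became 0 with median centring, with cell scores as covariates, without the libraries with Cd79a above 5 and with edgeR, and 2 (with Emilin1) with only the groups compared, with DESeq2, and with title number terms plus cell scores. In RUN (0 members) it became 1, Fbn1, with quantile normalization, without the lowest 25% of genes, with title number terms alone or with cell scores or edgeR or only titles 9 to 24, with covariates, without the Cd79a libraries, with DESeq2 and without titles 1 to 8. Averaged over treatments (2 members) it became 1 without titles 1 to 8, with or without title number terms. Leaving out 1 library gave 0 to 1 in SED, 0 to 1 in RUN, 2 to 3 averaged, and 0 in each exercise comparison. Fbn1 in SED then ranged from -1.76 to -1.29 (adjusted p 0.0189 to 0.111) and passed in 12 of 24 fits. In RUN it ranged from -1.51 to -1.11 (0.0276 to 0.148) and passed in 4 of 24, without ZT3_RUN 4, ZT15_SED 5 or ZT15_RUN 2 or 3. Averaged, it passed in 24 of 24 (-1.53 to -1.28, adjusted p 4.80e-04 to 0.00434), as did Emilin1. The cause of these shifts was not tested.

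In the time comparisons Fbn1 kept its direction under every alternative run. Members that were not called changed sign as follows. In SED with covariates: Fbln1 0.0064, Fbln2 0.035, Mfap5 0.12; with title number terms and scores, Fbln2 0.0012. In RUN with covariates: Fbln2 -0.0073, Mfap5 -0.15; without the Cd79a libraries, Fbln2 -0.030, Mfap5 -0.22; without titles 1 to 8, with or without title number terms, Fbln2 -0.0020, Mfap5 -0.013; with title number terms and scores, Mfap5 -0.089; with median centring, Fbln5 0.025. Over single libraries left out, the ranges that crossed 0 were, in RUN, Fbln1 -0.57 to 0.046, Fbln2 -0.030 to 0.23, Fbln5 -0.18 to 0.092 and Mfap5 -0.22 to 0.24, and in SED Mfap4 -0.20 to 0.093 and Mfap5 -0.54 to 0.019. Of the 276 single-gene values from alternatives that did not leave out single libraries, 243 kept direction and call. Of the rest, 6 lost a call, 13 gained one and 14 changed sign, as listed above. Of 480 values with 1 library left out, 450 kept both direction and call. Of 288 recomputed ratio comparisons, 287 kept both, and Fbn1 to Eln in SED had an exact permutation p of 0.0619 without the Cd79a libraries. All of these ratios share Fbn1 and were added with its fall known. Their count is thus no separate measure of how stable the Fbn1 call is. Over all genes, 191 passed in SED and 680 in RUN, against 548 and 1590 with DESeq2, 595 and 1163 with covariates and 109 in RUN with only the groups compared.

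The replicate block of neighbouring title numbers could be fitted only to the exercise comparisons, and 0 members passed there (Fbn1 at ZT15 0.27 ± 0.16, adjusted p = 0.513). Neighbouring numbers are not stated to pair libraries. Mfap4, at 5 reads in a library, is limited by depth.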
